A study of Mus musculus with 190 samples.

Results

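Whole-blood RNA of 1 cohort of mice was compared before and after dermatitis had developed. The comparison takes the 10 libraries labelled day 40 of cohort 4 (group 4 in the labels) against the 10 labelled day 12 of the same cohort, 20 of the 190 libraries of the series. Libraries were chosen by their titles alone, and all 55414 genes of the count table were considered, of which 18192 passed the filter on low counts and were tested. All 20 libraries came from male NC/Nga mice of WT genotype in conventional housing, and the labels give no age. On day 12 the visible dermatitis score was 0 in 8 mice and 0.5 in the mice of replicates 1 and 3. On day 40 it was 2 in 5 mice (replicates 2, 3, 4, 8 and 9) and 3 in the other 5 (replicates 1, 5, 6, 7 and 10).

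NC/Nga is an inbred strain that develops skin lesions resembling atopic dermatitis when housed conventionally, with scratching, raised IgE and infiltrates of eosinophils and mast cells. Blood carries neutrophils, lymphocytes, monocytes, platelets and reticulocytes, the last of which still hold RNA for haem and globin synthesis. Inflammation releases neutrophils from bone marrow under the cytokine G-CSF, and interferons switch on antiviral genes through STAT factors. The series was designed to follow the blood transcriptome around the onset of dermatitis and across its severity. In bulk blood a lower level of a cell type's genes can come from fewer such cells or from less RNA per cell. Levels are relative to the counts of a library, so it can also come from more RNA of other cells. These cannot be told apart here. Day, age and dermatitis change together within a single cohort, and no p-value below measures the spread between cohorts.

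Total counts per library ran from 25113181 to 47315925 (median 36408082.5). The globin share of counts was 1.98 to 4.49% on day 12 and 3.02 to 8.20% on day 40, and the share of mitochondrial rRNA genes was 5.14 to 13.7% and 4.52 to 15%. Between 17712 and 20286 genes had counts on day 12 and between 15960 and 18143 on day 40. Pearson's r of log2(CPM + 1) between replicates was 0.963 to 0.993 on day 12 and 0.950 to 0.992 on day 40. Several libraries stood apart. Day 12 replicates 1 to 5 each had high levels of hair keratins or of aggrecan (Acan), which stayed under 1 CPM in replicates 6 to 10, day 40 replicate 7 had the highest erythroid and type I interferon list means, and day 40 replicate 9 lay nearest to day 12 on most gene lists. Results were therefore also computed without day 12 replicates 1 to 5 and without day 40 replicates 7 and 9, both chosen after the values had been seen.

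Of 18192 genes tested, 5616 (30.9%) differed between the days at an edgeR adjusted p under 0.05. Of these, 2873 (15.8%) were higher on day 40 and 2743 (15.1%) were lower, and the median log2 change over all genes tested was -0.09. The CPM of the days did not overlap at all for 0.803% of the genes tested, higher on day 40, and for 45 genes (0.247%) that were lower. Genes of neutrophils, red cell precursors, platelets and the interferon response rose, and genes of B cells, MHC class II and eosinophils fell. Replicate numbers were not stated to mark the same mouse, and the libraries were treated as independent. Without day 12 replicates 1 to 5 the numbers were 1613 higher and 1130 lower, and against the 5 day 40 libraries of score 2 alone they were 952 and 494.

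**Figure D1:**
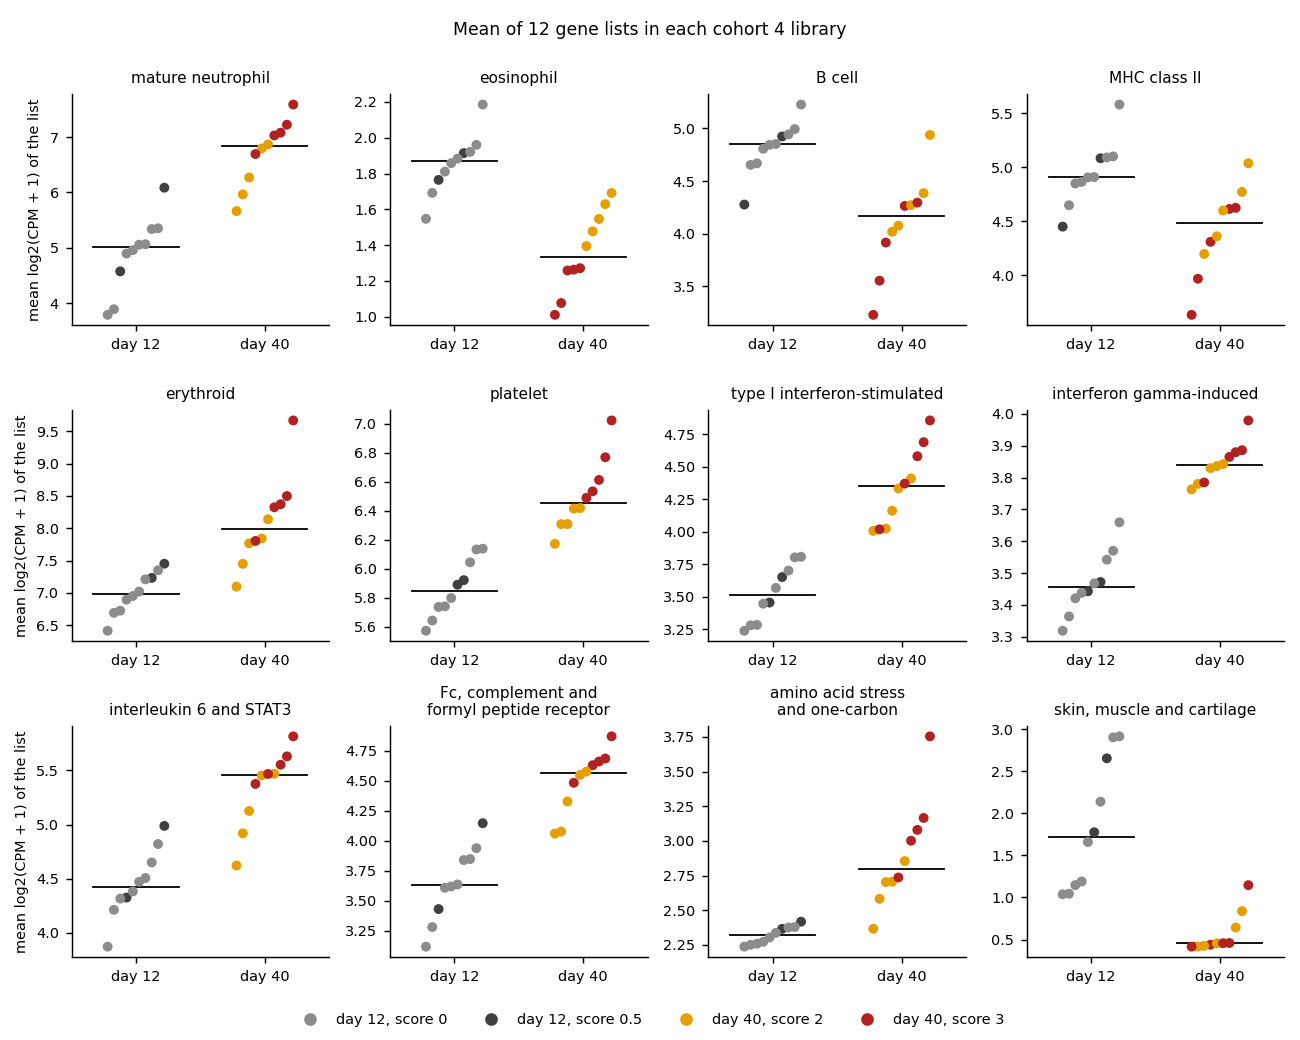
Mean log2(CPM + 1) of 12 gene lists in each of the 20 libraries of cohort 4, with 1 point per library, day on the horizontal axis and point colour by dermatitis score. The platelet, type I interferon and interferon gamma means of all 10 day 40 libraries lie above every day 12 library, while the B cell means of 7 day 40 libraries lie below every day 12 library.

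Neutrophil genes rose as a group. All 19 measured members of the mature neutrophil list rose on day 40, with a median log2 change of 1.62 and a range of 1.18 to 3.01. This list, like the others, was chosen with earlier results of these data known, so the count is not independent support. The list's mean log2(CPM + 1) was 3.79 to 6.09 on day 12 and 5.66 to 7.59 on day 40, and 8 of 10 day 40 libraries lay above every day 12 library. S100a8 (ENSMUSG00000056054.10, GRCm39 chromosome 3, 90576285 to 90577342), which encodes a calprotectin subunit, lay between 126.5 and 1325 CPM on day 12 (median 496) and between 841 and 4191 on day 40 (median 2010.1). The change was 1.82 ± 0.34 (SE, log2), with an adjusted p of 0.00051, and 7 of 10 day 40 libraries exceeded the highest day 12 value. Its partner S100a9 rose by 1.74 ± 0.30. Per length these were the most abundant members of the list, with a mean deposited TPM of 607 on day 12 and 1450.4 on day 40 for S100a8, and 741 and 1622 for S100a9.

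Ly6g, the surface protein used to gate mouse neutrophils, had the largest change on the list. It lay between 0.186 and 2.27 CPM on day 12 (median 0.766) and between 1.85 and 18.2 on day 40 (median 8.54), a change of 3.01 ± 0.50 (adjusted p = 0.00031), although reads of near-identical Ly6 genes may be shared. The day 12 values were below 2.3 CPM in every library, and only day 40 replicate 9 fell within them. Csf3r, the G-CSF receptor, rose by 1.27 ± 0.20, and the chemokine receptor Cxcr2 rose by 1.58 ± 0.26. Among secreted products, the gelatinase Mmp9 rose by 1.27 ± 0.22, the collagenase Mmp8 by 2.25 ± 0.38 and the antiprotease Slpi by 1.41 ± 0.17. The itaconate-forming enzyme Acod1 rose by 2.45 ± 0.52. The whey acidic proteins Wfdc17 (6.79 to 50.7 CPM on day 12 (median 26.2) against 55.3 to 193 on day 40 (median 133.4)) and Wfdc21 (5.22 to 30.9 CPM on day 12 (median 12.1) against 31.3 to 149.9 on day 40 (median 71.8)) were the list members whose days did not overlap. Their lowest day 40 values were just above their highest day 12 values.

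Granule genes changed less evenly. Of 11 measured granule genes, 7 rose and none fell, with a median of 1.20. Those that rose were lipocalin 2 (Lcn2, 2.04 ± 0.35), lactoferrin (Ltf, 1.29 ± 0.30), Cd177 (1.27 ± 0.21), Ngp (1.46 ± 0.44), Chil3 (1.37 ± 0.45), cathelicidin (Camp, 1.20 ± 0.35) and the histone-modifying enzyme Padi4 (0.75 ± 0.22). Lcn2 lay between 3.43 and 23.3 CPM on day 12 (median 7.93) and between 13.4 and 72.1 on day 40 (median 36.6). Myeloperoxidase (Mpo), made in promyelocytes, stayed under 0.5 CPM in all 20 libraries, with a change of -0.21 ± 0.66 (adjusted p = 0.84). Prtn3 and Ctsg, also early granule proteases, were as low and did not pass the test.

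**Figure D2:**
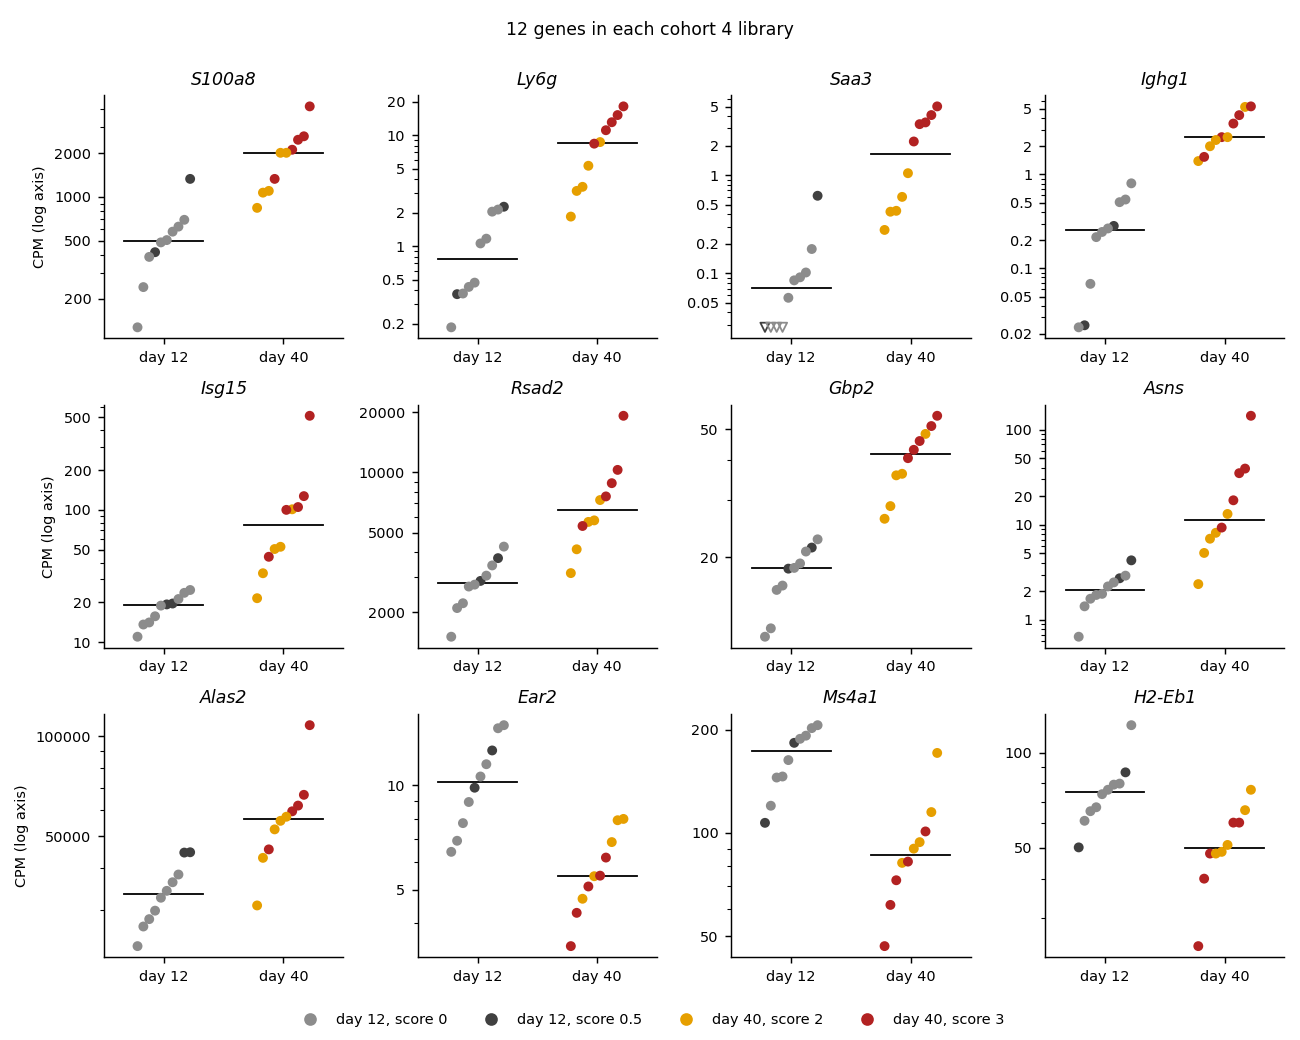
CPM of 12 genes in each of the 20 libraries of cohort 4 on a log axis, day 12 beside day 40, with 1 point per library, bars at the median and open triangles at the bottom for libraries at 0. The days do not overlap for Ighg1 and Gbp2, and Isg15 reaches 514 CPM in day 40 replicate 7.

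Receptors and cytokines that act on or are made by myeloid cells rose alongside. In the interleukin 6 and STAT3 list 9 of 12 rose and 1 fell, with a median of 0.99. Stat3, the transcription factor of the pathway, lay between 24.7 and 47.9 CPM on day 12 (median 33.7) and between 43.8 and 75.05 on day 40 (median 67.8), a change of 0.86 ± 0.12 (adjusted p = 2.0e-05). Its feedback inhibitor Socs3 rose by 1.76 ± 0.26, the kinase Pim1 by 1.13 ± 0.17 and the receptor subunit Il6ra by 0.57 ± 0.11, whereas the shared subunit Il6st (gp130) fell by 0.38 ± 0.09. The acute-phase genes haptoglobin (Hp, 1.71 ± 0.25) and Lrg1 (1.95 ± 0.35) also rose. In the interleukin 1 and inflammasome list 8 of 16 rose and none fell, where 15.8% of all genes tested rose. Il1b lay between 58.7 and 219 CPM on day 12 (median 133.8) and between 171.5 and 384 on day 40 (median 279), a change of 1.02 ± 0.20. Its receptor antagonist Il1rn rose by 0.89 ± 0.20, the accessory chain Il1rap by 1.31 ± 0.27, and the sensors and caspases Nlrp3, Casp1 and Casp4 by 0.77, 0.49 and 1.44. Tnf (0.41 ± 0.19, adjusted p = 0.1), Gsdmd (0.04 ± 0.09) and Pycard (-0.26 ± 0.11) did not pass the test.

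Receptors for immune complexes, complement and formyl peptides rose in 9 of 12 cases, with a median of 0.78. The complement C5a receptor C5ar1 lay between 0.963 and 6.13 CPM on day 12 (median 3.09) and between 5.03 and 16.5 on day 40 (median 11.9) and rose by 1.69 ± 0.26 (adjusted p = 9.3e-05). The formyl peptide receptors Fpr1 and Fpr2 rose by 1.85 ± 0.31 and 1.60 ± 0.27, and the activating IgG receptor Fcgr3 by 1.32 ± 0.20. The inhibitory receptor Fcgr2b changed by -0.05 ± 0.09 and C3ar1 by -0.31 ± 0.22, and neither passed the test. Neutrophils express many genes of these 3 lists, and the summed CPM of the neutrophil list was 710 to 4404 on day 12 and 2834 to 11924 on day 40. Its part in the changes was not tested.

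Interferon-stimulated genes rose in most members. Of 28 measured genes of the type I list, 21 rose and none fell, with a median of 0.73, and in 7 the days did not overlap. The list's mean log2(CPM + 1) was 3.24 to 3.81 on day 12 and 4.01 to 4.86 on day 40, so all 10 day 40 libraries lay above every day 12 library. Type I interferon acts through the factor ISGF3, which binds the interferon-stimulated response element. The core of that element, taken as GAAA, any 2 bases and GAAA on either strand, was searched in the RefSeq promoter windows of 250 bases before to 50 bases after each gene's start (build GRCm38.p6). It was present in 11 of the 18 type I genes that had a window (61.1%) and in 1079 of all 27025 genes (3.99%), in any of a gene's windows. It was in 8 of 14 matched interferon gamma genes (57.1%), 1 of 17 mature neutrophil genes (5.88%) and 0 of 16 erythroid genes. A match is a description of letters and does not show binding.

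The 250 bases before the start are given for 4 members that hold the core, each 5′ to 3′ on the gene's own strand, with matches to the core in capitals. The changes of all 4, given below, were above the median of the list. Isg15 lies at GRCm38.p6 chr4:156200819-156201068 (minus strand), Rsad2 at chr12:26456453-26456702 (minus), Oas3 at chr5:120777660-120777909 (minus) and Ifit1 at chr19:34640639-34640888 (plus).
Isg15: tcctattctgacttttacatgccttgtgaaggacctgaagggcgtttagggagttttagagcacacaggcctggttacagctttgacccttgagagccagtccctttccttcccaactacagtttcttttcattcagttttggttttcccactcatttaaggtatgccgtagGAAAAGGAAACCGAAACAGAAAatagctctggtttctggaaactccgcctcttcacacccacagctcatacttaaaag
Rsad2: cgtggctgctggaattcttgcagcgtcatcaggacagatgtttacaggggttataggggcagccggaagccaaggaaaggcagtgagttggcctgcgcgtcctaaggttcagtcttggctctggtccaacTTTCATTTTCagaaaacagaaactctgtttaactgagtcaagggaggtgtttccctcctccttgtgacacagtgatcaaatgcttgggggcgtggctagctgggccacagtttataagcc
Oas3: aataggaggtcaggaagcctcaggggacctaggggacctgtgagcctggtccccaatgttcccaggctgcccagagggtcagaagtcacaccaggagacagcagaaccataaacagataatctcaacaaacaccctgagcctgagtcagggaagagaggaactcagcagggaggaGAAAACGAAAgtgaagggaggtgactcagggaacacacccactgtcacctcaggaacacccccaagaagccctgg
Ifit1: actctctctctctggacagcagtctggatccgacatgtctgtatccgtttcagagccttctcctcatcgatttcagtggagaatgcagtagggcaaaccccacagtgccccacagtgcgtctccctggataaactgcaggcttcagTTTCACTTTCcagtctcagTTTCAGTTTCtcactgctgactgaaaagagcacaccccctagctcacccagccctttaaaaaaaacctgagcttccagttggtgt
The 3 matches of Isg15 overlap and begin 78, 72 and 66 bases before the start. Of the 2 matches of Ifit1 the nearer begins 85 bases before it, and the single matches of Rsad2 and Oas3 begin at 120 and 75 bases.

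The ubiquitin-like protein gene Isg15 (ENSMUSG00000035692.8, GRCm39 chromosome 4, 156283912 to 156285253) had the largest change of the list. It lay between 10.996 and 24.8 CPM on day 12 (median 19.1) and between 21.5 and 514 on day 40 (median 76.4), a change of 2.57 ± 0.47 (adjusted p = 0.00064), which was 1.88 without day 40 replicate 7. Only day 40 replicate 9 overlapped the day 12 range. Rsad2 (viperin), an antiviral radical enzyme, lay between 1509.5 and 4259.9 CPM on day 12 (median 2813) and between 3139 and 19216 on day 40 (median 6522) and rose by 1.36 ± 0.25 (adjusted p = 0.00022). Rsad2 took most of the list's summed CPM on both days, and per length its mean TPM was 191 on day 12 and 306 on day 40, against 12.4 and 38.7 for Isg15.

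The oligoadenylate synthetases, which activate RNase L, rose together. Oas2 lay between 1.998 and 7.27 CPM on day 12 (median 3.37) and between 7.56 and 20.3 on day 40 (median 13.5) and rose by 1.71 ± 0.24, with no overlap between the days. Oas3 rose by 2.01 ± 0.30, Oasl1 by 1.31 ± 0.21, Oasl2 by 1.81 ± 0.24 and Oas1a by 1.56 ± 0.21. Oas1e, outside the list and near-identical in part to other Oas1 genes, lay between 0.451 and 1.86 CPM on day 12 (median 0.974) and between 1.41 and 30.8 on day 40 (median 5.62) and rose by 2.94 ± 0.50. The receptor transporter Rtp4 had the smallest adjusted p of the list (2.5e-06), with a change of 1.71 ± 0.17 and values of 2.37 to 6.01 CPM on day 12 (median 4.09) against 8.55 to 23.1 on day 40 (median 12.7). Its lowest day 40 value exceeded its highest day 12 value.

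Of the factors that carry the signal, Irf7 rose by 1.20 ± 0.16, without overlap, and Stat2 by 0.43 ± 0.09. The cytosolic RNA sensors Ifih1 (MDA5) and Ddx58 (RIG-I, named by its older symbol in the table) rose by 0.82 ± 0.13 and 0.26 ± 0.08. The feedback protease Usp18 lay between 2.19 and 5.59 CPM on day 12 (median 4.33) and between 5.82 and 25.8 on day 40 (median 9.21) and rose by 1.34 ± 0.25. Ifit1 rose by 1.04 ± 0.18 and Ifit3 by 0.69 ± 0.15. The 7 members that did not pass the test were Mx1 (-0.11 ± 0.18), Mx2 (-0.17 ± 0.49), Ifi44 (0.24 ± 0.27), Dhx58 (0.38 ± 0.15), Xaf1 (0.25 ± 0.15), Eif2ak2 (0.31 ± 0.13) and Bst2 (0.21 ± 0.21).

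Interferon gamma-induced genes rose in 7 of 16 cases and none fell, with a median of 0.41, where 15.8% of all genes tested rose. The guanylate-binding protein Gbp2 lay between 11.3 and 22.7 CPM on day 12 (median 18.4) and between 26.3 and 55.04 on day 40 (median 41.9), a change of 1.17 ± 0.13 (adjusted p = 4.4e-06), without overlap. Gbp7 and Igtp, GTPases of the same defence, rose by 0.87 ± 0.13 and 0.88 ± 0.15, and the factor Irf1 by 0.48 ± 0.10. The chemokine Cxcl9 was called at very low levels, with a highest value of 0.332 CPM on day 40. Gbp4 (-0.16 ± 0.11), Psmb8 (-0.03 ± 0.11) and Cd274 (0.15 ± 0.11) did not pass the test, nor did Ifng itself (-0.30 ± 0.37, adjusted p = 0.58). Against the 5 day 40 libraries of score 2 alone, 18 type I and 5 interferon gamma genes rose, where 5.23% of all genes did.

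B cell genes fell. Of 18 measured, 16 fell and none rose, with a median of -0.77. Ms4a1 (chromosome 19, 11227039 to 11243605), which encodes the surface protein CD20, lay between 107.2 and 206 CPM on day 12 (median 172.8) and between 46.8 and 170.8 on day 40 (median 86.3). It fell by 0.90 ± 0.18 on the log2 scale (adjusted p = 0.00079), and the ranges of the days overlapped. The low-affinity IgE receptor Fcer2a (CD23) had the largest fall, 1.08 ± 0.22, followed by Cd72 with 1.05 ± 0.19. The B lineage factors Pax5 and Ebf1 fell by 0.85 ± 0.25 and 0.82 ± 0.21, and the BAFF receptor Tnfrsf13c by 0.87 ± 0.16. Cd79a (-0.49 ± 0.25) and Vpreb3 (-0.67 ± 0.37) did not pass the test. Day 40 replicate 9 had a list mean of 4.94, within the day 12 range of 4.28 to 5.23, and day 40 replicate 6 had the lowest, 3.23. With the day 40 libraries of score 2 alone 8 of the 18 fell (2.72% of all genes did), and with those of score 3 alone 17 did (17.2% of all genes).

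MHC class II genes, expressed by B cells, dendritic cells and monocytes, fell in 7 of 10 cases and rose in none, with a median of -0.60. H2-Ab1 lay between 31.3 and 99.5 CPM on day 12 (median 63.04) and between 22.7 and 54.99 on day 40 (median 40.9) and fell by 0.62 ± 0.17 (adjusted p = 0.0098). H2-Aa fell by 0.57 ± 0.15 and H2-Eb1 by 0.59 ± 0.17. H2-Ob and H2-Oa, which make the B cell-enriched regulator of peptide loading, fell by 0.89 ± 0.15 and 0.96 ± 0.25. The invariant chain Cd74 (-0.21 ± 0.25, adjusted p = 0.56), the master regulator Ciita (-0.47 ± 0.19) and H2-DMa (-0.51 ± 0.21) did not pass the test. The B cell list moved with these genes, and its part in their fall was not tested.

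Immunoglobulin constant genes went both ways. Ighm fell by 0.74 ± 0.16 (from a day 12 median of 208 CPM to 130.6 on day 40), Ighd by 0.69 ± 0.21 and the light chain Igkc by 0.56 ± 0.14. The switched isotype Ighg1 (ENSMUSG00000076614.8, chromosome 12, 113288860 to 113294143) lay between 0.0235 and 0.805 CPM on day 12 (median 0.255) and between 1.39 and 5.32 on day 40 (median 2.50) and rose by 3.28 ± 0.44 (adjusted p = 3.1e-05). All 10 day 40 libraries lay above every day 12 library. Ighg2c rose by 2.38 ± 0.45 and Ighg2b by 0.48 ± 0.18, while Ighg3 (0.14 ± 0.28), Igha (-0.22 ± 0.19) and Ighe (1.40 ± 1.00, at most 0.175 CPM) did not pass the test. Of plasma cell genes, the secretory factor Xbp1 rose by 0.67 ± 0.12, and Jchain (-0.23 ± 0.19), Mzb1 (-0.54 ± 0.21) and Prdm1 (-0.17 ± 0.21) did not pass the test. Syndecan-1 (Sdc1), which marks plasma cells and also epithelia, fell by 2.59 ± 0.38, from 0.530 to 4.16 CPM on day 12 (median 1.32) against 0.0851 to 0.600 on day 40 (median 0.304).

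Eosinophil genes fell in 4 of 8 measured cases and rose in none, with a median of -0.95, where 15.1% of all genes tested fell. The eotaxin receptor Ccr3 lay between 11.03 and 34.4 CPM on day 12 (median 16.7) and between 3.39 and 14.9 on day 40 (median 8.56) and fell by 1.00 ± 0.28 (adjusted p = 0.01). The interleukin 5 receptor Il5ra lay between 3.07 and 6.29 CPM on day 12 (median 4.82) and between 0.257 and 3.97 on day 40 (median 1.81) and fell by 1.44 ± 0.28 (adjusted p = 0.0006), with 9 of 10 day 40 libraries below every day 12 library. The eosinophil ribonucleases Ear2 and Ear6 fell by 0.90 ± 0.17 and 1.70 ± 0.51. The lectin Siglecf (-0.13 ± 0.21), Alox15 (-0.57 ± 0.25), Prg2 (-1.44 ± 0.66) and Ear1 (-0.51 ± 0.72) did not pass the test. Epx and Prg3, which define eosinophil granules, were too low to be tested, and Prg2 did not exceed 0.384 CPM. The 9 measured basophil and mast cell genes had a median of 0.07. Fcer1a, the alpha chain of the IgE receptor, had values of 1.52 to 3.43 CPM on day 12 (median 2.27) against 1.5 to 6.02 on day 40 (median 3.49) and a change of 0.46 ± 0.22 (adjusted p = 0.12), and Il4 stayed under 1 CPM.

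T and natural killer cell genes fell slightly in some members. Of 20 T cell genes 5 fell and 1 rose, with a median of -0.23, and of 14 natural killer genes 6 fell and 1 rose, with a median of -0.28. Over all genes tested 15.1% fell and 15.8% rose. The CD3 chain Cd3g lay between 14.2 and 19.97 CPM on day 12 (median 17.2) and between 8.14 and 15.4 on day 40 (median 12.9) and fell by 0.45 ± 0.10. Lef1 and Ccr7, of naive T cells, fell by 0.53 ± 0.13 and 0.42 ± 0.12, and Trbc1 and Trbc2 by 0.34 ± 0.11 and 0.33 ± 0.10. Cd4 (0.04 ± 0.11), Cd8a (-0.13 ± 0.12) and Lck (-0.04 ± 0.13) did not pass the test. Among natural killer genes, Ncr1 fell by 0.53 ± 0.14, Klrb1c by 0.52 ± 0.12 and Klrk1 by 0.35 ± 0.09, while granzyme B (Gzmb) rose by 0.61 ± 0.15. Of 7 regulatory T cell genes only the costimulator Icos rose (0.41 ± 0.13), and Foxp3 had a change of 0.40 ± 0.35 (adjusted p = 0.42).

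Monocyte genes rose in 5 of 14 cases and fell in 1, where 15.8% of all genes tested rose and 15.1% fell. The growth factor receptor Csf1r lay between 27.3 and 46.4 CPM on day 12 (median 35.8) and between 45.1 and 70.7 on day 40 (median 63.2) and rose by 0.68 ± 0.10 (adjusted p = 5.4e-05). The endotoxin co-receptor Cd14 rose by 1.41 ± 0.25, Ly6c2 of classical monocytes by 0.60 ± 0.11, the transglutaminase F13a1 by 0.71 ± 0.15 and Treml4 by 0.42 ± 0.14, and Ms4a4c fell by 0.50 ± 0.15. Treml4 is a gene of non-classical monocytes. Of other such genes, Nr4a1 (0.16 ± 0.19), Ace (-0.04 ± 0.21) and Cx3cr1 (-0.31 ± 0.13) did not pass the test. Ccr2 (0.04 ± 0.17) did not pass it either. Of 9 dendritic cell genes 3 fell, Tcf4 by 0.70 ± 0.13, Cd209a by 0.87 ± 0.21 and Zbtb46 by 1.11 ± 0.39. Tcf4 is also expressed in B cells, and Zbtb46 lost its call in 5 of the 20 fits that left out 1 library.

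Of 13 measured type 2 genes 4 rose and 1 fell, where 15.8% of all genes tested rose and 15.1% fell. The shared interleukin 4 and 13 receptor chain Il4ra lay between 27.7 and 51.2 CPM on day 12 (median 39.5) and between 45.1 and 94.4 on day 40 (median 76.1) and rose by 0.86 ± 0.13 (adjusted p = 3.4e-05). Il13ra1 rose by 1.39 ± 0.25, the transcription factor Stat6 by 0.52 ± 0.10 and the skin-homing receptor Ccr4 by 0.72 ± 0.22. The oncostatin M receptor Osmr fell by 1.49 ± 0.51. The alarmin receptors Il1rl1 (0.29 ± 0.12) and Crlf2 (-0.00 ± 0.14), Gata3 (0.10 ± 0.28) and the itch receptor Il31ra (-0.52 ± 0.54) did not pass the test. Il5 and Il13 were too low to be tested.

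Red cell precursor genes rose in every measured case. All 24 erythroid genes rose, with a median of 1.19 and a range of 0.59 to 2.03. The haem synthesis enzyme Alas2 (ENSMUSG00000025270.14, chromosome X, 149330371 to 149353634) lay between 23274 and 44691 CPM on day 12 (median 33434) and between 30947 and 107700 on day 40 (median 56379), a change of 0.71 ± 0.20 (adjusted p = 0.0078). The membrane skeleton genes Epb42 (2.03 ± 0.40), Ank1 (1.68 ± 0.28) and Slc4a1 (1.61 ± 0.31) rose more. The factors Tal1, Gata1 and Klf1 rose by 0.93 ± 0.14, 0.99 ± 0.17 and 1.16 ± 0.28, and Tal1 alone of the 24 had no overlap (10.996 to 22.9 CPM on day 12 (median 18.1) against 24.4 to 63.9 on day 40 (median 33.98)). The iron importer Slc25a37 rose by 1.22 ± 0.20 and the transferrin receptor Tfrc by 1.32 ± 0.32. Day 40 replicate 7 was the highest library, with a list mean of 9.67 against 7.10 to 8.5 in the other 9, and day 40 replicates 8 and 9 did not exceed the highest day 12 library by list mean.

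Of 4 globin genes 3 rose (Hba-a1 1.05 ± 0.28, Hbb-bs 0.94 ± 0.23, Hbb-bt 1.18 ± 0.26), and Hba-a2 did not pass the test (0.37 ± 0.25). The library kit depletes globin RNA and these genes share reads, so their levels are uncertain. With the globin and mitochondrial rRNA shares as covariates 15 of 24 erythroid genes and 1 of 4 globin genes rose (10.8% of all genes did), and with score 2 libraries alone 12 and 1. The globin share is made of the counts of these 4 globin genes. The covariate fit therefore takes out their own change by construction and cannot test it, and it also takes out change that erythroid genes share with them. Of 18 cell cycle genes 5 rose and none fell, among them Ccna2 (1.68 ± 0.33), Mki67 (1.15 ± 0.27) and Ccnb2 (1.40 ± 0.33). Over all genes tested 15.8% rose. The summed CPM of the erythroid list was 38892 to 78356 on day 12 and 56950 to 226510 on day 40, and its part in the cell cycle genes was not tested.

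Platelet genes rose in 12 of 15 cases and none fell, with a median of 0.63, and all 10 day 40 libraries had a list mean above every day 12 library. The integrin beta 3 gene Itgb3 lay between 109.9 and 210.2 CPM on day 12 (median 154.4) and between 229 and 525 on day 40 (median 276) and rose by 0.93 ± 0.15 (adjusted p = 8.8e-05) without overlap. Treml1, of platelet granules, lay between 7.90 and 12.5 CPM on day 12 (median 10.04) and between 14.02 and 22.3 on day 40 (median 17.5) and rose by 0.69 ± 0.11, also without overlap. The adhesion genes Vwf and Selp rose by 1.04 ± 0.20 and 1.17 ± 0.21 and the integrin alpha IIb gene Itga2b by 0.63 ± 0.12. The chemokine Ppbp (0.25 ± 0.15), Gp6 (0.29 ± 0.12) and Clec1b (0.30 ± 0.13) did not pass the test.

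Among amino acid and folate-cycle genes, 9 of 20 rose and 2 fell, where 15.8% of all genes tested rose and 15.1% fell. Asparagine synthetase (Asns, ENSMUSG00000029752.13, chromosome 6, 7675169 to 7693254) lay between 0.666 and 4.23 CPM on day 12 (median 2.07) and between 2.38 and 140.4 on day 40 (median 11.2), a change of 3.55 ± 0.65 (adjusted p = 0.00063), which was 2.71 without day 40 replicate 7. The mitochondrial folate enzyme Mthfd2 lay between 9.78 and 25.6 CPM on day 12 (median 14.8) and between 25.4 and 356 on day 40 (median 84.1) and rose by 2.80 ± 0.40 (adjusted p = 9.4e-05). In both genes day 40 replicate 7 was the highest library and only replicate 9 overlapped day 12. The mitochondrial enzyme Pck2 rose by 1.76 ± 0.33, the transporter pair Slc7a5 and Slc3a2 by 1.40 ± 0.23 and 1.33 ± 0.27, and the stress genes Sesn2 and Atf5 by 1.41 ± 0.23 and 1.81 ± 0.40. Atf4, their known activator, rose by 0.40 ± 0.15, and Ddit3 (0.31 ± 0.17), Trib3 (0.17 ± 0.51) and Chac1 (-0.22 ± 0.50) did not pass the test. The serine synthesis genes Phgdh (-0.16 ± 0.19) and Psat1 (-0.36 ± 0.15) did not pass the test, and Psph fell by 0.47 ± 0.17. The second core searched, TGATGNAAT of C/EBP-ATF elements, was in 293 of 27025 genes (1.08%) and in 0 of the 17 matched genes of this list. Only these exact letters were searched, so elements with other letters would be missed. At so low a share over all genes, 0 of 17 cannot tell the list from other genes.

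Few ribosomal protein genes were called, with 2 of 30 higher and 2 lower and a median of -0.04. Of all genes tested 15.8% were higher and 15.1% lower. Rplp0 had a change of 0.87 ± 0.24, which was 0.52 without day 40 replicate 7, and Rpl28 of 0.58 ± 0.20, which was 0.29 without it. Rpl5 and Rpl22 fell by 0.32 ± 0.11 and 0.25 ± 0.09. Of 12 immediate early genes Zfp36 (0.79 ± 0.14), Junb (1.12 ± 0.22) and Dusp1 (0.84 ± 0.25) rose, while Fos (0.19 ± 0.18) and Egr1 (-0.83 ± 0.33) did not pass the test. Of 8 glucocorticoid-responsive genes 3 rose, Fkbp5 by 0.63 ± 0.14, Sgk1 by 0.62 ± 0.13 and Dusp1. Of 12 clock genes Per2 (0.76 ± 0.21) and Cry1 (0.33 ± 0.10) rose and Nr1d2 (-0.50 ± 0.12) and Tef (-0.63 ± 0.15) fell, near the shares over all genes tested. The hour of sampling is not given in the labels.

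Of the 10 genes with the largest rises, 5 belong to no list and have not been described above. Saa3, an acute-phase serum amyloid, had the largest change. It lay between 0 and 0.618 CPM on day 12 (median 0.0705) and between 0.277 and 5.04 on day 40 (median 1.63), a change of 4.15 ± 0.78 (adjusted p = 0.00067), and was at 0 in 4 day 12 libraries. The potassium channel gene Kcnn3 lay between 0 and 0.464 CPM on day 12 (median 0.161) and between 0.525 and 4.89 on day 40 (median 1.83) and rose by 3.64 ± 0.56, with no overlap. The uridine phosphorylase Upp1 lay between 0.431 and 3.04 CPM on day 12 (median 1.33) and between 3.58 and 14.8 on day 40 (median 10.4) and rose by 2.71 ± 0.37, also with no overlap. Rufy4 rose by 2.50 ± 0.42. The secreted peptide Prok2, made by neutrophils, rose by 2.99 ± 0.85 (adjusted p = 0.013), and by 4.27 without day 12 replicate 3.

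The 10 largest falls were mostly genes of hair follicle, cartilage and other connective tissue that blood cells do not normally express. All but Col10a1 were high in only 2 to 4 day 12 libraries. Krt25, an inner root sheath keratin (chromosome 11, 99206342 to 99213777), was at 58.3, 68.9 and 72.1 CPM in day 12 replicates 2, 4 and 5, at 0 to 1.19 in the other 7 and at most 0.0333 on day 40. Krt71 followed the same libraries with 30.4, 41 and 42.2 CPM, against 0 to 0.338 in the other 7, and had no count on day 40. Over the group it was at least 1090-fold lower on day 40, taking 3 counts over the 10 libraries as the floor. By the same floor Krt27 was at least 742-fold and Krt73 at least 248-fold lower. Near-identical hair keratins may share reads. Krt81 was high in day 12 replicates 4 and 5 alone (34.2 and 38.8 CPM), against 0 to 0.207 in the other 8.

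Cartilage genes, together with Krt8 and Angptl1, marked other libraries. Aggrecan (Acan) was at 9.28, 24.7, 72.1 and 110.96 CPM in day 12 replicates 1 to 4 and at most 0.73 in replicates 5 to 10, and its day 40 values did not exceed 0.166. Hapln1, Krt8 and Angptl1 were above 1 CPM in those same 4 libraries only and at 0 in all 10 day 40 libraries, which makes them at least 376-fold, 366-fold and 290-fold lower. The call was lost in 13 of 20 fits that left out 1 library for Krt27 and Krt73, in 14 for Angptl1, 9 for Krt8, 3 for Krt71 and 1 for Krt81. Without day 12 replicates 1 to 5, Krt71 and Krt25 were still called, and Krt27, Hapln1, Krt8, Acan, Krt73 and Krt81 were not.

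The type I collagen genes Col1a1 and Col1a2 were lower in every day 40 library than in any day 12 library. Col1a1 (ENSMUSG00000001506.11, chromosome 11, 94827050 to 94843868) lay between 2.48 and 66.2 CPM on day 12 (median 13.2) and between 0.0289 and 2.14 on day 40 (median 0.421) and fell by 4.96 ± 0.73 (adjusted p = 0.00012). Col1a2 fell by 4.53 ± 0.65 and the matrix protein Sparc by 4.05 ± 0.57, and Col10a1 of growth plate cartilage was at least 229-fold lower. The days did not overlap in any of these 4, though only narrowly for Col10a1. It had no counts on day 40, and its lowest day 12 library had hardly any. Of the 15 genes of the skin, muscle and cartilage list 10 fell and none rose, with a median of -3.39. The days overlapped in the rest of the list, Col3a1 among them. The epidermal keratins Krt1 and Krt10 and the muscle genes Acta1, Ckm and Mylpf did not pass the test. Without day 12 replicates 1 to 5 the list had 5 falls, and with the filter set over the 2 days alone 5 of its genes were also called. Blood was drawn from the tail vein, and the part of RNA from outside the blood was not tested.

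**Figure D3:**
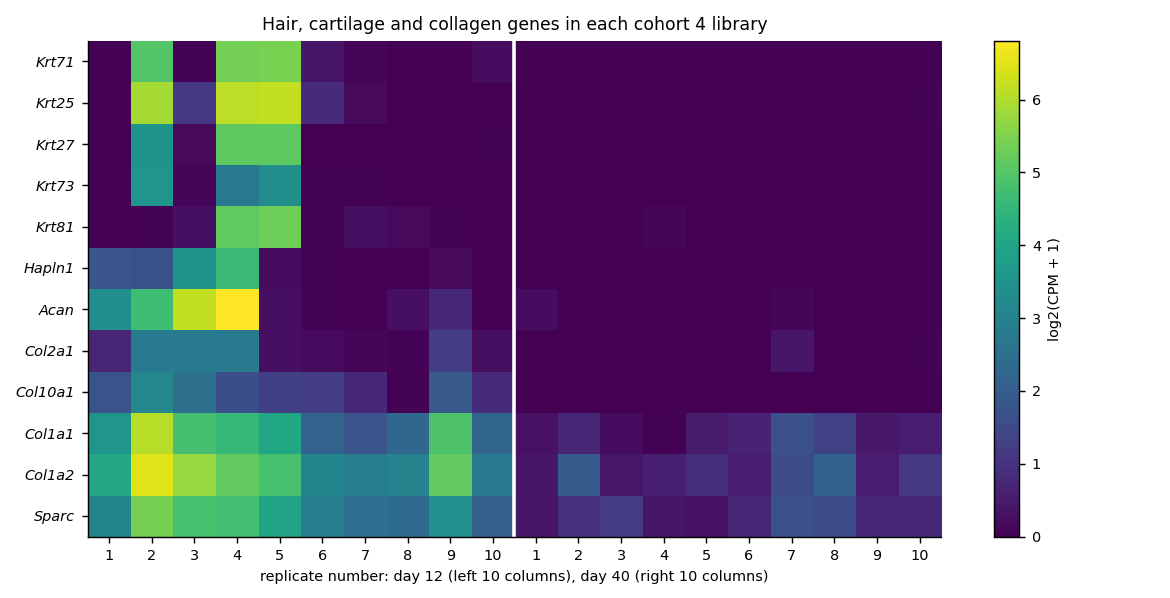
Heat map of log2(CPM + 1) of 12 hair keratin, cartilage and matrix genes (rows) in the 20 libraries of cohort 4 (columns, day 12 replicates 1 to 10 and then day 40 replicates 1 to 10). The hair keratins are high in day 12 replicates 2, 4 and 5 or part of them, Acan in day 12 replicates 1 to 4, and Col1a1, Col1a2 and Sparc in every day 12 library.

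On day 40 the 5 mice of score 3 were compared with the 5 of score 2. Of 18192 genes 2 were called, both higher at score 3 (0.011%), and 2700 had an unadjusted p under 0.05. Saa3 was at 0.277, 0.425, 0.434, 0.602 and 1.05 CPM at score 2 and at 2.21, 3.32, 3.46, 4.11 and 5.04 at score 3. The groups did not overlap, and the difference was 2.68 ± 0.34 on the log2 scale (adjusted p = 0.0013). Wfdc21 ran from 31.3 to 64.5 CPM at score 2 (median 47.6) and from 79.1 to 149.9 at score 3 (median 110.8), a difference of 1.14 ± 0.19 (adjusted p = 0.046) that lost its call in 6 of 10 fits without 1 library. DESeq2 called 1.01% of the genes tested.

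Whole lists leaned one way at score 3 although hardly any member was called. All 24 erythroid genes had positive differences (median 0.92), as had all 19 neutrophil genes (0.67) and all 15 platelet genes (0.39). All 18 B cell genes (-0.58) and all 10 MHC class II genes (-0.43) had negative ones, as had 7 of 8 eosinophil genes (-0.92) and 19 of 20 T cell genes (-0.31). The median over all genes was -0.03. Type I interferon genes were less uniform, with 20 of 28 positive and a median of 0.29, and interferon gamma genes had a median of 0.01. The eosinophil list mean was 1.01 to 1.27 in the 5 score 3 libraries and 1.39 to 1.69 in the 5 score 2 libraries. The neutrophil list mean overlapped, with 5.66 to 6.87 at score 2 and 6.69 to 7.59 at score 3. So did the erythroid list mean, with 7.10 to 8.14 at score 2 and 7.80 to 9.67 at score 3. Of the day 40 libraries that stood apart, replicate 7, with the highest erythroid mean, has score 3. Replicate 9, nearest to day 12 on most lists, has score 2. Their part in these differences was not tested. Genes of 1 list rise and fall together between libraries, so a shared sign is not independent evidence from each gene.

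To ask how far the change of cohort 4 exceeded that of mice without dermatitis, it was set against the change in the specific-pathogen-free (SPF) control group from day 16 to day 44. The 5 libraries of each day came from mice of the same strain, sex and genotype at score 0, and the labels do not say that the same mice were sampled again. Of 18192 genes 1508 (8.29%) differed in their change, 1066 (5.86%) more positive in cohort 4 and 442 (2.43%) more negative. The SPF change alone had 0 calls with edgeR and 1531 genes at an unadjusted p under 0.05. SPF day 16 replicate 3 stood apart with a globin share of 45.3%, against a median of 3.78% in its group. The sampling days differ by 4 and the housing differs too.

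Erythroid genes differed most widely, with 23 of 24 more positive in cohort 4 (median difference 1.69), and they had a median of -0.68 in the SPF mice's own change. Alas2 differed by 1.19 ± 0.32 (adjusted p = 0.016), with 22796 to 44277 CPM in SPF mice on day 16 and 20295 to 33124 on day 44. Without 1 SPF library 21 to 24 erythroid genes were called, and with the globin and mitochondrial rRNA shares as covariates 10 were. That covariate fit takes out change shared with the globin genes. Of 19 neutrophil genes 8 differed (2 to 12 without 1 SPF library), all more positive, with a median of 1.52 and an SPF median of 0.19. Ly6g was at 0.281 CPM (median) in SPF mice on day 16 and 0.272 on day 44, and differed by 4.00 ± 0.97 (adjusted p = 0.011). Without SPF day 16 replicate 5 that difference was 2.59 (adjusted p = 0.11), and it was not called with the share covariates either (adjusted p = 0.10). S100a8 differed by 2.12 ± 0.61 (adjusted p = 0.031), which lost its call without SPF day 16 replicate 5 or SPF day 44 replicate 2. Slpi and Mxd1 differed by 1.19 ± 0.31 and 1.43 ± 0.40, and Mxd1 lost its call in 3 of 10 fits without 1 SPF library (day 16 replicate 3 or 5, or day 44 replicate 4). Csf3r, which rose in cohort 4, differed by 0.47 ± 0.38 (adjusted p = 0.47), and was not called.

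Of 28 type I interferon genes 7 differed (4 to 11 without 1 SPF library). Isg15 had medians of 18.2 CPM on day 16 and 12.2 on day 44 in SPF mice and differed by 3.37 ± 0.71 (adjusted p = 0.0057). Oas1e ran from 0.424 to 1.23 CPM on day 16 and from 0 to 0.322 on day 44 and differed by 4.78 ± 0.84 (adjusted p = 0.0035). Gbp2, Gbp7 and Igtp of the interferon gamma list differed by 0.90 ± 0.21, 0.85 ± 0.23 and 0.89 ± 0.24. Of amino acid genes 6 differed, among them Asns (3.71 ± 0.98), Mthfd2 (3.18 ± 0.57) and Slc7a5 (1.84 ± 0.42). The cell cycle gene Ccna2 differed by 2.37 ± 0.48. None of the 18 B cell genes or the 10 MHC class II genes was called, with median differences of -0.65 and -0.51, and without 1 SPF library 0 to 3 and 0 were. Saa3 (4.42 ± 1.53, adjusted p = 0.07), Kcnn3 (3.21 ± 1.29, adjusted p = 0.11), Upp1 (0.98 ± 0.74, adjusted p = 0.43) and Ighg1 (2.07 ± 1.06, adjusted p = 0.22) were not called.

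Some of the largest differences from the SPF mice rested on 1 SPF library. Hba-a1 differed by 5.45 ± 1.23, but its SPF day 16 values ran from 1421 to 230620 CPM, and without SPF day 16 replicate 3 the difference was 1.20 (adjusted p = 0.19). Hbb-bt differed by 4.05 ± 0.89, and by 1.58 (adjusted p = 0.036) without that library. Lars2 differed by 5.24 ± 1.27 and by -0.11 without it. On the negative side Col2a1 (-7.58), Dsp (-7.19), Col11a1 (-7.08), Cd109 (-6.75) and Tln2 (-6.42) were high in SPF day 44 replicate 3, and their differences were -2.65, -2.83, -4.34, -2.84 and -1.63 without it. Of the skin, muscle and cartilage list 4 genes differed negatively and 1 positively, and without 1 SPF library 1 to 4 and 0 to 1 did.

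Cohorts 2 and 6, of the same strain, sex, genotype and housing, were also sampled on day 40 but first on day 5 and day 19. Their scores on day 40 ran from 0.5 to 3 in cohort 2 and from 0 to 3 in cohort 6. The comparisons with SPF mice, cohort 2 and cohort 6 share the 20 cohort 4 libraries. The change of cohort 4 differed from that of cohort 2 in 459 genes (2.52%), 207 more positive (1.14%) and 252 more negative (1.39%). It differed from that of cohort 6 in 0 genes (0%) with edgeR, where 1426 had an unadjusted p under 0.05 and DESeq2 called 50. That does not show that the changes were alike. On day 40 the globin share was 1.86 to 9.01% in cohort 6 and 0.368 to 5.44% in cohort 2. The mitochondrial rRNA share was 4.83 to 21.3% and 1.80 to 13.3%. No fit left out a library of these 2 cohorts. In its own change cohort 2 had 9137 calls (50.2%), 21.4% of genes higher and 28.8% lower. Cohort 6 had 3565 (19.6%), with 11.4% higher and 8.21% lower.

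Several neutrophil genes had risen more in cohort 2. All 19 rose there (21.4% of all genes did), with a median of 3.41, and 6 of 19 differed negatively in cohort 4 (median difference -1.70). With the replicate block or with the share covariates 0 of the 19 were called, at medians of -1.13 and -1.68. S100a8 ran from 54.3 to 210.1 CPM on day 5 in cohort 2 (median 137.9) and from 134.5 to 10479 on day 40 (median 1603), and differed by -2.46 ± 0.63 (adjusted p = 0.035). Eosinophil genes differed in 4 of 8 cases, all negatively, with a median of -1.89 and an own change of 1.51 in cohort 2, and in 0 with the share covariates. Ccr3 went from a median of 1.94 CPM on day 5 to 7.32 on day 40 in cohort 2, and from 16.7 on day 12 to 8.56 in cohort 4. The difference was -3.29 ± 0.47 (adjusted p = 0.00014), so the cohorts were near each other on day 40 and apart at their first sampling. P2ry14, a receptor for UDP-sugars, differed by -3.02 ± 0.43, Tmem229a by -3.54 ± 0.55 and the transporter Abcc2 by -2.88 ± 0.55.

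Of 14 monocyte genes 2 differed from cohort 2, both more positive in cohort 4, and 8 of 14 differences were positive. Ace ran from 21.6 to 32.7 CPM on day 5 in cohort 2 and from 4.40 to 16.4 on day 40, and differed by 1.65 ± 0.31 (adjusted p = 0.005). Nr4a1 differed by 1.62 ± 0.27 (adjusted p = 0.00091), with medians of 6.60 and 2.32 CPM in cohort 2. Cx3cr1 (0.43 ± 0.18) and Treml4 (0.45 ± 0.25) were not called. Negative differences, also not called, included Ccr2 (-0.81 ± 0.24, adjusted p = 0.055), F13a1 (-0.69 ± 0.21), Cd14 (-0.98 ± 0.48) and Ly6c2 (-0.34 ± 0.25). With DESeq2, 3 of the 14 monocyte genes were called more positive and 2 more negative. Tlr9, Bcl9l and Klhl4 differed by 1.58 ± 0.37, 1.55 ± 0.41 and 1.48 ± 0.42. Erythroid, platelet and type I interferon lists had median differences of -0.15, -0.07 and -0.23 from cohort 2 and of 0.13, -0.18 and 0.55 from cohort 6. The comparison with cohort 2 depended on the fit: with the globin and mitochondrial rRNA shares as covariates 2 genes were called.

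Against cohort 6 the smallest adjusted p belonged to matrix genes. Lum differed by -4.21 ± 0.79 (adjusted p = 0.081), with 0.0967 to 1.32 CPM on day 19 and 0 to 2.15 on day 40 in cohort 6, and -4.36 ± 0.90 was found for Col5a2 (adjusted p = 0.13) and -3.64 ± 0.79 for Col1a2 (adjusted p = 0.15). The skin, muscle and cartilage list had a median of -3.09 in this difference and of -0.91 in cohort 6's own change. In cohort 6 itself 24 erythroid, 15 platelet and 17 neutrophil genes rose, where 11.4% of all genes tested did.

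**Figure D4:**
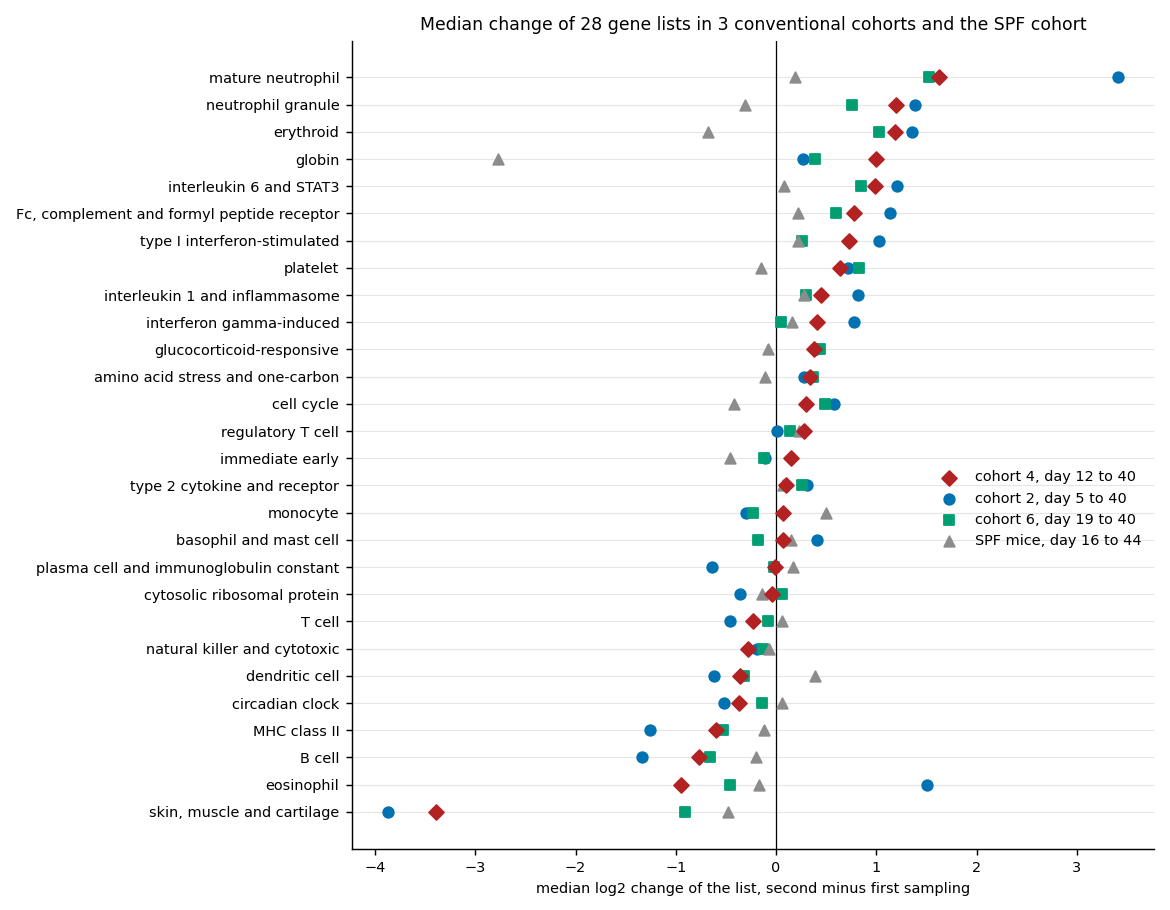
Median log2 change of each of the 28 gene lists between the first and the second sampling in cohort 4 (day 12 to 40), cohort 2 (day 5 to 40), cohort 6 (day 19 to 40) and the SPF mice (day 16 to 44), with 1 point per list and cohort. The neutrophil median is 1.62 in cohort 4, 3.41 in cohort 2, 1.52 in cohort 6 and 0.19 in SPF mice, and the erythroid median is negative in SPF mice alone.

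The study set out to find dynamical network biomarkers, which are sought in the spread and correlation of genes between samples. Spread was measured here as each library's absolute deviation of log2(CPM + 1) from the median of its day. With limma 0 of 18192 genes (0%) were called, and 1334 had an unadjusted p under 0.05, of which 587 spread more on day 40 and 747 less. The smallest adjusted p was 0.14, for Col10a1, whose mean deviation was 0.67 on day 12 and 0 on day 40, where it had no counts. Saa3 had a mean deviation of 0.12 on day 12 and 0.75 on day 40 (adjusted p = 0.19).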

How the data were processed

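RNA from tail-vein whole blood (EDTA, NucleoSpin RNA Blood) was made into TruSeq Stranded Total RNA libraries with rRNA and globin depletion, per the labels' protocols. The authors deposited expected counts per gene and TPM for 190 libraries, with DRAGEN and GRCm39 named in the submitters' processing notes and no version given there. Of the deposited expected counts 2.86% were not whole, and all were rounded. TPM values, as the authors deposited them, were used only to compare levels between genes. CPM values were computed from the counts with TMM scaling.

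Genes were kept by filterByExpr (minimum count 10, minimum total 15) over 20 groups of libraries. Differences were tested with the quasi-likelihood test of edgeR 4.0.16 in R 4.3.3 over all 18192 genes, with Benjamini-Hochberg adjustment and a threshold of 0.05, and SE is the log2 change over the square root of F. Differences of changes were interaction contrasts between day and cohort. Spread was tested with limma 3.58.1. The test scripts were tested on simulated data. The members and the 28 lists were chosen with earlier results of these data known.

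Genes were named by rule: the 10 largest rises and 10 largest falls among called protein-coding genes with a mean of at least 1 CPM and at least 8 of 10 day 40 libraries on the called side of the day 12 median, and per list its first gene and the 3 smallest adjusted p. In other comparisons the 5 largest each way were named, or the 3 smallest p where none was called. Other list members are given to show which did or did not pass. Nothing states that libraries came from separate animals on the 2 days or that a replicate number marks 1 mouse, so p-values measure the spread between these libraries. Deviations of same-numbered libraries from their group means correlated between -0.25 and 0.18, and the numbers were not taken as pairs. Alternatives were DESeq2 1.42.0, RLE size factors, other filters, technical genes left out, globin and mitochondrial rRNA shares as covariates, a replicate block, splits by score, and leaving libraries out. Promoter letters are from RefSeq on GRCm38.p6, and 323 of 416 list genes had a window. They were matched by symbol, and GRCm39 coordinates are those of the deposited table. Results for some list genes are not reported here, although the list counts include them.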

Additional observations from a re-analysis of the deposited data

Results flagged for a closer look

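Over the library measures, list means and named genes of each day in cohort 4, 9 cases held 1 library far from the other 9 of its day by Dixon's test. That is 8.49% of the sets examined, where chance gives about 5%. The globin share was 8.20% in day 40 replicate 2. Among list means of log2(CPM + 1), the natural killer list stood at 2.50 in day 12 replicate 3, and in day 40 replicate 7 the regulatory T cell list stood at 1.72 and the ribosomal protein list at 7.26. Among single genes on the log2(CPM + 1) scale, day 12 replicate 3 had 0.69 for Saa3 and 1.32 for Prok2, and this mouse had a score of 0.5. Angptl1 was at 4.59 in day 12 replicate 4. Krt25 at 0.047 in day 40 replicate 10 and Krt81 at 0.12 in day 40 replicate 4 were the only day 40 libraries with a count for these genes.

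Changes that differed from those of the SPF mice by the interaction contrast were largest for Hba-a1 (5.45 on the log2 scale), Lars2 (5.24), Oas1e (4.78), Hbb-bt (4.05) and Ly6g (4.00). On the negative side they were largest for Col2a1 (-7.58), Dsp (-7.19), Col11a1 (-7.08), Cd109 (-6.75) and Tln2 (-6.42). Without 1 SPF library Oas1e differed by 4.56 to 4.97, and Ly6g by 2.59 to 4.32, with its call lost without SPF day 16 replicate 5. The globin share of SPF day 16 replicate 3 was 45.3%, and its part in the differences of Hba-a1, Hbb-bt and Lars2 is given by the values without it in the text above.

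Changes that differed from those of cohort 2 were largest for Ace (1.65), Nr4a1 (1.62), Tlr9 (1.58), Bcl9l (1.55) and Klhl4 (1.48) on the positive side, and for Tmem229a (-3.54), Ccr3 (-3.29), P2ry14 (-3.02), Abcc2 (-2.88) and S100a8 (-2.46) on the negative side. With the globin and mitochondrial rRNA shares as covariates P2ry14 alone of these 10 was still called.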

How the results depend on the processing

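Shares are percent of genes tested. Of the named genes called on day 40 against day 12, 62 were called in every alternative that tested them, 32 at most, 44 lost the call in at least 1 and 0 reversed. Day 40 libraries of score 2 alone gave 7.95% (5.23% higher, 2.72% lower), and without day 12 replicates 1 to 5 there were 15.1% (8.87% and 6.21%), both with fewer libraries. The share covariates gave 10.03% lower. Leaving out 1 library gave 27.3% to 33.8%, with 14.1% to 16.9% higher and 12.7% to 16.9% lower. Without technical genes the split was 2672 and 3123 genes, with the filter within the days compared 2891 and 2256, and without score above 0 on day 12 2652 and 2783. Signs turned only in uncalled genes and in Lars2. Mcpt8 was 0.12 with covariates, 0.034 without score above 0, 0.053 with score 2 alone and -0.25 to 0.042 without 1 library (0.042 without day 12 replicate 3). Mpo was 0.25 with score 3 alone, 0.95 without day 12 replicates 1 to 5 and -0.48 to 0.032 without 1 library (0.032 without day 12 replicate 5). Jchain was 0.018 with score 2 alone and Flt3 -0.090 with score 3 alone. Lars2 against SPF mice was -0.13 with covariates and -0.11 (without SPF day 16 replicate 3) to 5.55 without 1 library.

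Score 3 against 2 gave 1.01% with DESeq2, 0.0055% with RLE, 0.0076% with the narrower filter, 0.093% without filter and 0.0055% to 0.11% without 1 library (20 genes without day 40 replicate 4). Against SPF mice the lower genes were 1.62% with RLE and 0.96% without filter (more genes tested), and the covariates gave 2.15% (1.42% and 0.74%). Leaving out 1 SPF library gave 5.24% (without day 44 replicate 5, with 5.41% without day 16 replicate 5) to 12.6% (without day 16 replicate 1), with 4.21% to 7.41% higher and 0.76% to 5.18% lower, and the lower genes were under 1.62% without any of day 16 replicates 2 to 5 and day 44 replicates 1, 2 and 5. Against cohort 2, DESeq2 gave 6.08% (2.001% and 4.08%), the narrower filter 2.15% higher and the covariates 0.011% (0 and 0.011%). Against cohort 6, DESeq2 gave 0.27% and the covariates 0.033%. The cause of these shifts was not tested.

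In the check for pairing by replicate number 2 of 10 correlations were over 0.1, and 1 of 10 day 12 libraries correlated best with its own number. This check cannot settle pairing, since the deviations of 1 mouse need not persist between the days. With the replicate block 2527 genes were higher and 2252 lower on day 40, 929 and 407 against SPF mice, 0.25% (0.10% and 0.15%) against cohort 2 and 0.0055% against cohort 6.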

Other observations

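Several further gene groups were picked after their values had been seen, and are given as values alone. The first are genes known from blood vessel walls, of which some were lower on day 40 and others did not pass the test. Fabp4, a fatty acid carrier of endothelium and fat, had the smallest adjusted p of all genes (3.2e-08), with 12.2 to 32.96 CPM on day 12 (median 19.7) against 3.33 to 6.86 on day 40 (median 5.54) and a change of -2.04 ± 0.16. All 10 day 40 libraries lay below every day 12 library. Cav1 fell by 2.67 ± 0.41, Col4a1 by 2.37 ± 0.28, Epas1 by 1.36 ± 0.18, Kitl by 1.96 ± 0.35 and Cdh5 (VE-cadherin) by 1.14 ± 0.35. Pecam1 (0.12 ± 0.09), Kdr (0.24 ± 0.13) and Tie1 (0.26 ± 0.32), which platelets or other blood cells also express in part, did not pass the test. The collagens described above fell in the same comparison, and the part of RNA from vessel or skin was not tested.

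Several genes that act in glucose use were among those that rose on day 40. Pfkfb4, a regulator of glycolysis, had 15.7 to 34.7 CPM on day 12 (median 24.4) against 36.4 to 94.3 on day 40 (median 60.7) and a change of 1.23 ± 0.14, without overlap. The lactate exporter Slc16a3 rose by 1.65 ± 0.19, Pkm by 0.91 ± 0.12, G6pdx of the pentose phosphate pathway by 1.13 ± 0.14, Slc2a1 by 1.01 ± 0.20 and Ldha by 0.40 ± 0.10. The oxygen sensor Egln3 rose by 1.45 ± 0.19 and haem oxygenase Hmox1 by 1.63 ± 0.18. Of the phagocyte oxidase, Ncf4 rose by 1.12 ± 0.13, whereas Cybb (-0.09 ± 0.12) did not pass the test. The bacterial lipoprotein receptor Tlr2 had 7.41 to 24.6 CPM on day 12 (median 14.1) against 26.1 to 72.4 on day 40 (median 50.98) and rose by 1.65 ± 0.20, without overlap, and its adaptor Myd88 rose by 1.12 ± 0.15.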
